A study of Mus musculus with 12 samples.

Results

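The 10 genes described here make prostaglandins, break them down or receive their signal: Pla2g4a, Ptgs1, Ptgs2, Ptges, Ptgis, Hpgd, Ptger1, Ptger2, Ptger4 and Ptgfr. They were taken by gene symbol from 2 tables of 52636 genes, and each symbol matched 1 gene. The set was selected on measured values of these same libraries, namely the difference between siKlf4 and Scr in each cell type and the baseline levels, so every value of the 10 genes is given as a description and without a test. Bulk RNA-seq, in which the RNA of all cells of a culture is pooled, covered 12 libraries in 4 groups of 3. Murine airway smooth muscle cells (SMCs), purchased as a C57BL/6 tracheal line from CellBiologics, were treated with a scrambled control RNA (Scr) or with small interfering RNA against Klf4 (siKlf4). Lung PDGFR-β+ cells of 12 week old C57BL/6 mice received the same 2 treatments. All groups were transfected with 50 nM RNA for 6 h and cultured for 72 h. In both cell types the labels give the Scr groups as WT and the siKlf4 groups as Klf4 KD, and no age is given for the SMCs. By the study's methods the lung cells were sorted as Zs+ from Pdgfrb-CreERT2, ROSA26R(Zs/+) mice after tamoxifen, a reporter that the labels do not give, so they are the cells in which the Pdgfrb promoter drove Cre. Several transfection reagents and suppliers of siRNA are named there, without saying which served for RNA-seq. The SMCs came from 1 commercial source, and the study's methods call them primary cells while its reporting summary lists them under cell lines. The supplement describes the 3 libraries of a group as independent experiments. Since the labels do not say that they came from separate cultures, p-values measure only the spread between these libraries.

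Prostaglandins are made from arachidonic acid, which cytosolic phospholipase A2 (Pla2g4a) releases from membranes. The cyclooxygenases Ptgs1 and Ptgs2 turn it into prostaglandin H2, and terminal synthases then make the individual prostanoids: Ptges makes prostaglandin E2 and Ptgis makes prostacyclin. Prostaglandin E2 acts through the EP receptors, which in smooth muscle either raise calcium and contract the cell or raise cyclic AMP (cAMP) and relax it, and it restrains collagen production in lung fibroblasts. Prostacyclin relaxes smooth muscle through its own receptor, and Hpgd starts the inactivation of prostaglandins inside the cell.

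Values are TPM, a transcript abundance corrected for transcript length and for the total of the library, so levels of different genes can be compared within a library. TPM keeps no record of sequencing depth, and between 20590 and 21780 genes per library were above 0. Klf4, the target of the knockdown, was at 21.9% of its Scr mean in siKlf4 SMCs (log2 difference -2.16, limma adjusted p = 7.5e-04) and at 9.16% in siKlf4 PDGFR-β+ cells (-3.35, adjusted p = 3.3e-06), with no overlap between treatments. In each SMC group 1 library carries no replicate number in the table of values, and these 2 libraries stand apart from the 4 numbered ones, so SMC differences of the 10 genes are also given for the numbered libraries. Klf4 differed by -2.38 there and by -1.72 between the unnumbered ones. Among the markers of smooth muscle, Acta2 measured 1031 to 1567 TPM in Scr SMCs and 3969 to 4594 TPM in Scr PDGFR-β+ cells, while Myocd stayed at or below 0.213 TPM in all 12 libraries. The summed level of the 9 smooth muscle markers was 1509 to 2299 TPM in Scr and 3432 to 4204 TPM in siKlf4 SMCs, and 5577 to 6428 TPM in Scr and 4736 to 5039 TPM in siKlf4 PDGFR-β+ cells. The latter sum is carried by Acta2 and Tagln, which fell in PDGFR-β+ cells, as did Des (-0.82). Myh11, Lmod1 and Smtn rose there, with log2 differences of 0.66, 0.58 and 0.31. Cnn1 (-0.40) and Actg2 (0.37) did not pass there at an adjusted p of 0.05. In SMCs every tested smooth muscle marker rose but Des, which did not pass (-0.36, limma adjusted p = 0.0884). The 8 mesenchymal markers summed to 3748 to 4025 TPM in Scr and 3081 to 3199 TPM in siKlf4 SMCs. In PDGFR-β+ cells they summed to 4326 to 5056 TPM with Scr and 3376 to 4370 TPM with siKlf4. Cspg4 (-1.97), Pdpn (-0.93), Col1a1 (-0.63) and Pdgfrb (-0.41) fell there. The others, Col1a2 (0.12), Tcf21 (0.11), Pdgfra (0.09) and Rgs5 (-0.17), did not pass there at an adjusted p of 0.05. Over the 12 libraries the summed level of 7 epithelial markers was at most 1.19 TPM and that of 6 mast cell markers at most 3.41 TPM. The 6 endothelial markers summed to 1.62 to 4.42 TPM in SMCs and to 14.1 to 18.5 TPM in PDGFR-β+ cells, where Kdr alone held a mean of 12.5 to 15.3 TPM. The 8 macrophage and leukocyte markers, mostly Cd14 or Lyz2, summed to 45.5 to 49.5 TPM in Scr and 24.9 to 29.6 TPM in siKlf4 SMCs, and to 35.4 to 36.9 TPM and 29.1 to 33.8 TPM in PDGFR-β+ cells, with Fcgr1 at 0 throughout. Cd14 fell in SMCs (-0.87) and rose in PDGFR-β+ cells (0.55), where Csf1r (-0.87) and Lyz2 (-0.71) fell. At an adjusted p of 0.05 Lyz2 did not pass in SMCs (-0.71), nor did Cd68 in SMCs (0.19) or PDGFR-β+ cells (0.20). The part of these markers in the differences below was not tested, and in bulk RNA fewer cells of a type and less RNA per cell cannot be told apart.

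Ptgs2, the inducible cyclooxygenase, differed with siKlf4 in opposite directions in the 2 cell types. Its level was 18.5, 36.6 and 42.0 TPM in Scr SMCs and 142, 321 and 274 TPM in siKlf4 SMCs. Here and below, SMC values begin with the unnumbered library and go on with replicates 2 and 3. The PDGFR-β+ libraries, replicates 1 to 3, held 215, 209 and 191 TPM under Scr and 134, 153 and 133 TPM under siKlf4. Every siKlf4 SMC library was thus above every Scr SMC library, and every siKlf4 PDGFR-β+ library was below every Scr PDGFR-β+ library. The means were 32.4 ± 12.3 and 246 ± 92.5 TPM in SMCs (SD, n = 3), a ratio of 7.59, and 205 ± 12.6 and 139.9 ± 11.0 TPM in PDGFR-β+ cells (SD, n = 3), a ratio of 0.683. On the log2(TPM + 1) scale the difference between siKlf4 and Scr was 2.88 ± 0.38 (standard error) in SMCs and -0.55 ± 0.08 in PDGFR-β+ cells. The wide spread among SMC libraries followed the numbering: the unnumbered library was the lowest of its group under both treatments. The difference itself was 2.88 between the unnumbered libraries and 2.89 ± 0.11 in the numbered ones.

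Ptgs1, the constitutive cyclooxygenase, also differed in opposite directions, by less. It measured 105, 116 and 118 TPM in Scr and 171, 193 and 177 TPM in siKlf4 SMCs. Its PDGFR-β+ values were 191, 219.8 and 169 TPM under Scr and 147, 149.9 and 145 TPM under siKlf4. The groups did not overlap in either cell type, and the log2 difference was 0.67 ± 0.08 in SMCs (standard error) and -0.38 ± 0.10 in PDGFR-β+ cells. Without the unnumbered SMC libraries it was 0.66 ± 0.06.

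The cyclooxygenases together were thus set differently in the 4 groups. Ptgs1 and Ptgs2 summed to 145 ± 19.0 TPM in Scr SMCs and to 426 ± 102 TPM in siKlf4 SMCs (SD, n = 3). In PDGFR-β+ cells the sum was 398 ± 35.2 TPM with Scr and 287 ± 13.2 TPM with siKlf4 (SD, n = 3). Ptgs2 made up 15.0 to 26.3% of the sum in Scr SMCs and 45.4 to 62.5% in siKlf4 SMCs. In PDGFR-β+ cells that share was 48.7 to 53.0% with Scr and 47.7 to 50.4% with siKlf4, ranges that overlap. The tables of the 2 cell types may have been normalized separately, so levels across them are set side by side and were not tested.

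**Figure D1:**
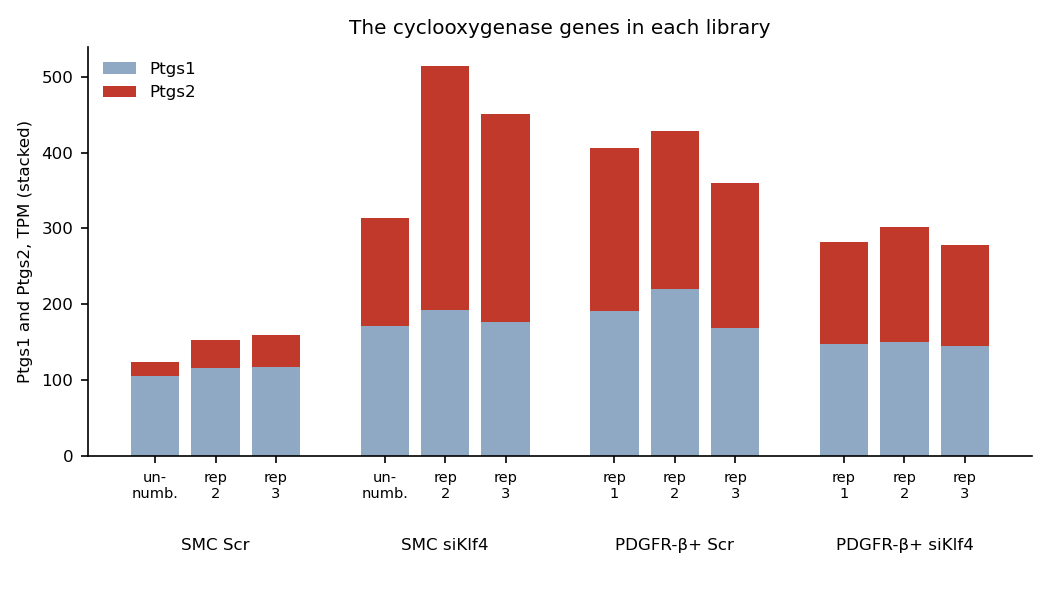
Stacked bars give Ptgs1 and Ptgs2 in TPM in each of the 12 libraries, grouped by cell type and treatment. The sum is 124 to 160 TPM in Scr SMCs and 314 to 514 TPM in siKlf4 SMCs, and 359 to 428 TPM in Scr and 278 to 302 TPM in siKlf4 PDGFR-β+ cells.

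The sequence before the start of each cyclooxygenase gene is shown because both genes differed between treatments and Klf4 encodes a factor that binds CACCC words and GC boxes. The windows are the 250 bases before the RefSeq start on GRCm38.p6, read 5′ to 3′ on the gene's strand. Capitals mark each match, on either strand, of the KLF core word CACCC, the GC box GGGCGG, the TATA box TATAAA or the C/EBP word TTGCNNAA.
Ptgs2, chr1:150099781-150100030, forward strand: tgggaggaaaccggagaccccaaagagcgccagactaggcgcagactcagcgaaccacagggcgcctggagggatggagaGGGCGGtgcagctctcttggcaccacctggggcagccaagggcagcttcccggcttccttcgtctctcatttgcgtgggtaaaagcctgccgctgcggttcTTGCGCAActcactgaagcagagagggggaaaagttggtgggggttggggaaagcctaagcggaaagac
Ptgs1, chr2:36230176-36230425, forward strand: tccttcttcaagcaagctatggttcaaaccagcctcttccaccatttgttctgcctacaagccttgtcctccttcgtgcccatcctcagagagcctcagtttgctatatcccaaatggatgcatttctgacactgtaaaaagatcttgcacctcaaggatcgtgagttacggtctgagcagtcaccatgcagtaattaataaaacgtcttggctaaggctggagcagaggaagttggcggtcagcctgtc
Neither window held the CACCC word, which 52% of 32851 RefSeq windows of the same length hold. The Ptgs2 window held 1 GC box, at -170 to -165 from the start, and 1 C/EBP word, at -69 to -62, and 32.7% and 9.56% of all windows hold these. The Ptgs1 window held none of the 4 words. Neither window held the CRE TGACGTCA, its short form TGACG, the AP-1 word TGANTCA, the E-box CACGTG or the NF-kB consensus, which 1.55%, 17.8%, 6.75%, 6.02% and 3.9% of windows hold. Just after the RefSeq start of Ptgs2, in its transcribed first bases, lie an E-box, in capitals, at +17 to +22 and, at +14 to +18, the CRE short form on the other strand, which shares 2 bases with the E-box.
Ptgs2 start, chr1:150100035-150100058: tcaccactacgtCACGTGgagtcc
A match is a string of letters and not a measured site, and the absence of one concerns this window only.

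Ptgs2 and Ptgs2os, a noncoding gene on the opposite strand, start from the same stretch: Ptgs2os ends at 150099963 on chromosome 1, 68 bp before the start of Ptgs2 at 150100031, so its first bases lie inside the window above. Ptgs2os measured 0.862, 0.911 and 1.41 TPM in Scr SMCs and 1.90, 2.86 and 2.42 TPM in siKlf4 SMCs (log2 difference 0.72 ± 0.18, limma adjusted p = 0.0255). It thus rose beside Ptgs2 in SMCs, but the call was lost without the unnumbered Scr library, Scr replicate 2, siKlf4 replicate 2 or siKlf4 replicate 3 (adjusted p between 0.0627 and 0.0891) and with the numbered libraries alone (0.0522). Ptgs2os in PDGFR-β+ cells stood at 4.77, 5.82 and 4.07 TPM under Scr and 5.74, 5.30 and 6.58 TPM under siKlf4 (0.23 ± 0.14, adjusted p = 0.241), so the treatments overlapped. No gene of the annotation overlaps Ptgs2 itself.

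Pla2g4a, which supplies arachidonic acid to both cyclooxygenases, was higher with siKlf4 in both cell types. It measured 60.3, 74.6 and 72.9 TPM in Scr and 103, 138 and 131 TPM in siKlf4 SMCs. The PDGFR-β+ values were 220.3, 216 and 209 TPM under Scr and 318, 324 and 296 TPM under siKlf4. The groups did not overlap in either, with ratios of the means of 1.79 and 1.45 and log2 differences of 0.83 ± 0.13 and 0.54 ± 0.06 (standard error). In the numbered SMC libraries the difference was 0.86 ± 0.05. Pla2g4a occupies 149829618 to 149961290 of chromosome 1 (reverse strand), and Ptgs2 on the forward strand of the same chromosome, from 150100031 to 150108227. The window before the first of its RefSeq starts, shown for comparison with the cyclooxygenases, held 1 CACCC word.
Pla2g4a, chr1:149961291-149961540, reverse strand: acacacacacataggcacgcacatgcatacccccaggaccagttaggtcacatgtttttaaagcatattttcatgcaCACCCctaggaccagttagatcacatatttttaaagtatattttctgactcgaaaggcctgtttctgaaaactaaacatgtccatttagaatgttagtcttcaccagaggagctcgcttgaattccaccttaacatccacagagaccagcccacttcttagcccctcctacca
That word lies at -173 to -169, and the other 8 motifs were not found in this window.

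The synthases differed from each other. Ptgis, which makes prostacyclin, was the most abundant of the 10 genes in Scr SMCs and was lower with siKlf4 in both cell types. It measured 239.8, 281 and 264 TPM in Scr and 103, 89.3 and 95.0 TPM in siKlf4 SMCs. The PDGFR-β+ values were 157, 160.1 and 142 TPM under Scr and 88.5, 73.2 and 72.9 TPM under siKlf4. With no overlap in either cell type, 36.6% of the Scr mean was left in SMCs and 51.1% in PDGFR-β+ cells. The log2 difference was -1.44 ± 0.09 and -0.96 ± 0.10 (standard error). It depended in size on the SMC libraries used, with -1.55 ± 0.06 in the numbered ones and -1.21 between the unnumbered ones.

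Ptges, the inducible prostaglandin E synthase, differed by less than Ptgis. It measured 39.0, 47.0 and 35.6 TPM in Scr and 45.4, 60.4 and 42.8 TPM in siKlf4 SMCs, which overlap. In PDGFR-β+ cells 28.4, 36.8 and 28.8 TPM with Scr lay above 24.4, 26.0 and 25.4 TPM with siKlf4, without overlap. The log2 difference was 0.28 ± 0.15 in SMCs and -0.29 ± 0.11 in PDGFR-β+ cells (standard error), and 0.31 ± 0.21 in the numbered SMC libraries. Single libraries weighed on Ptges, with 0.13 in SMCs without siKlf4 replicate 2 and -0.17 in PDGFR-β+ cells without Scr replicate 2. The ratio of Ptges to Ptgis, as levels per length, was 0.135 to 0.167 in Scr and 0.440 to 0.677 in siKlf4 SMCs. In PDGFR-β+ cells it was 0.181 to 0.230 with Scr and 0.276 to 0.356 with siKlf4, so that in both cell types every siKlf4 library had more Ptges per Ptgis than every Scr library.

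Hpgd, the dehydrogenase that inactivates prostaglandin E2, was close to the lower limit of these data. It measured 1.34, 1.03 and 0.863 TPM in Scr and 1.38, 0.476 and 1.08 TPM in siKlf4 SMCs, which overlap, with a log2 difference of -0.09 ± 0.22 (standard error), -0.15 in the numbered libraries and 0.10 without siKlf4 replicate 2. Its PDGFR-β+ values were 0.657, 0.346 and 0.576 TPM under Scr and 0.0285, 0.0619 and 0.316 TPM under siKlf4. These are below the minimum mean of 1 TPM, and siKlf4 replicate 3 lay just under the lowest Scr library.

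**Figure D2:**
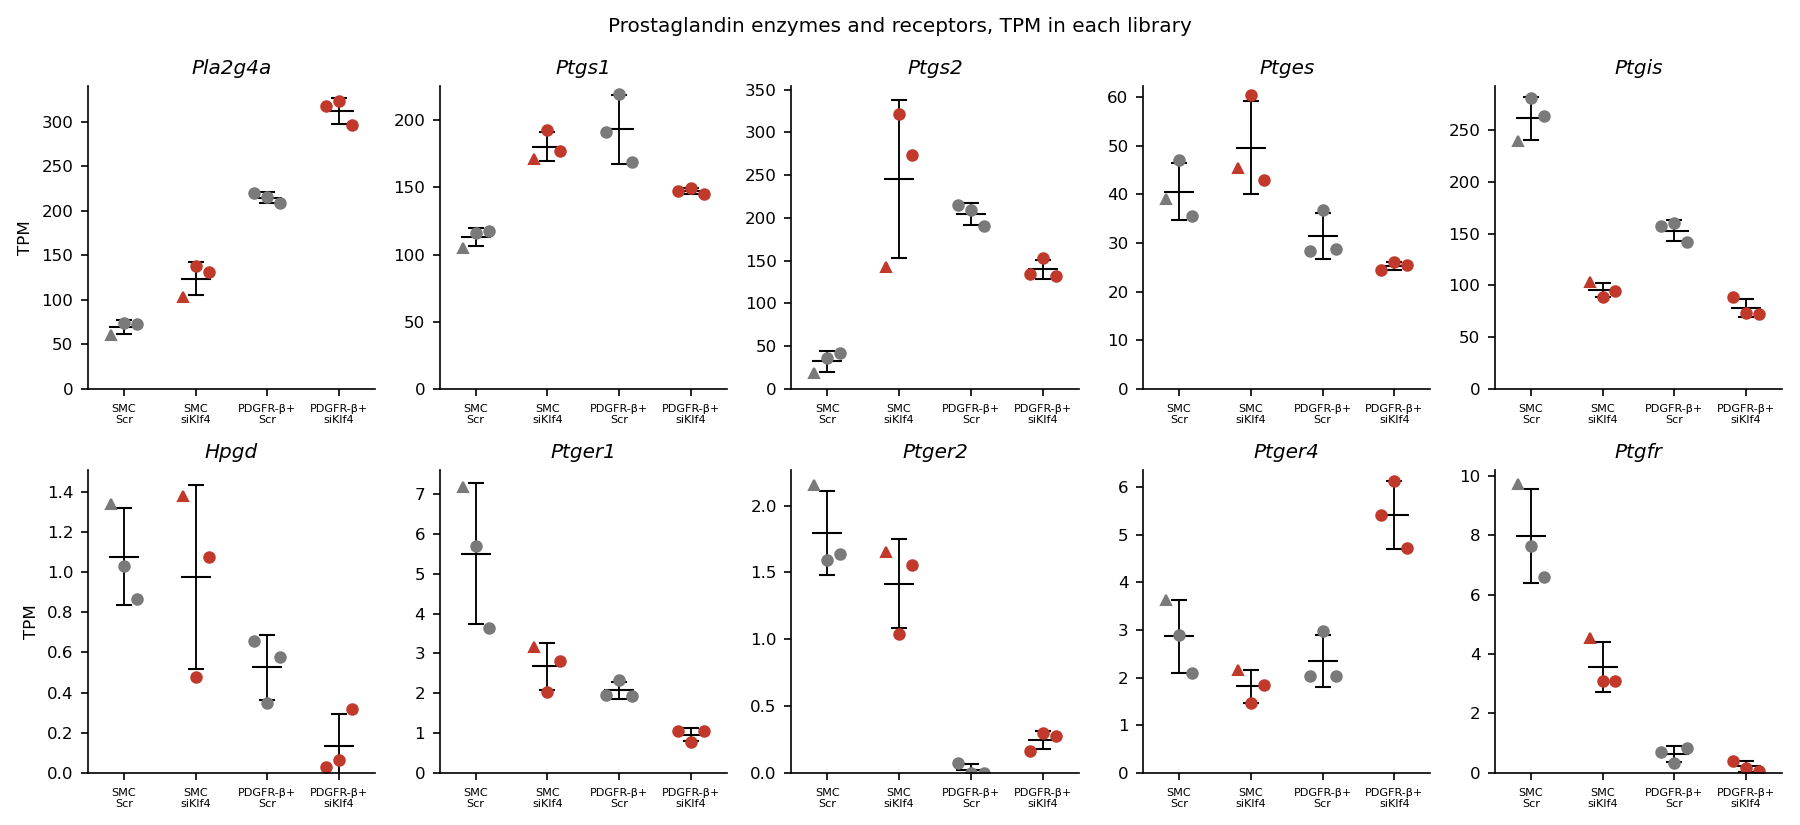
Each panel gives the TPM of 1 of the 10 genes in all 12 libraries, with a linear axis from 0. Points are libraries (triangles are the SMC libraries without a number), and bars are the mean and SD of 3 libraries. Ptgs2 and Ptgs1 shift up with siKlf4 in SMCs and down in PDGFR-β+ cells, Ptgis shifts down and Pla2g4a up in both, and Ptger4 shifts up in PDGFR-β+ cells.

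Of the receptors, Ptger1 (EP1, which signals through calcium) and Ptgfr (FP, the receptor of prostaglandin F2α) were lower with siKlf4 in SMCs. Ptgfr measured 9.71, 7.63 and 6.59 TPM in Scr and 4.54, 3.08 and 3.09 TPM in siKlf4 SMCs, without overlap, with a log2 difference of -0.97 ± 0.18 (standard error) and -0.99 ± 0.13 without the unnumbered libraries. In PDGFR-β+ cells Ptgfr was under the minimum, at 0.714, 0.322 and 0.848 TPM under Scr and 0.415, 0.170 and 0.0684 TPM under siKlf4, which overlap. Ptger1 measured 7.18, 5.69 and 3.65 TPM in Scr and 3.16, 2.03 and 2.82 TPM in siKlf4 SMCs. The lowest of its Scr libraries was just above the highest siKlf4 library.

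In PDGFR-β+ cells Ptger1 measured 1.95, 2.33 and 1.94 TPM under Scr and 1.04, 0.778 and 1.06 TPM under siKlf4, again without overlap. Its log2 difference was -0.80 ± 0.23 in SMCs and -0.65 ± 0.15 in PDGFR-β+ cells (standard error). The size rests on the SMC libraries used: it was -0.71 ± 0.24 in the numbered ones and -0.97 between the unnumbered ones.

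Ptger4 and Ptger2 encode EP4 and EP2, the EP receptors that raise cAMP. Ptger4 measured 2.04, 2.98 and 2.04 TPM in Scr and 5.41, 6.13 and 4.72 TPM in siKlf4 PDGFR-β+ cells, a ratio of the means of 2.30 and a log2 difference of 0.94 ± 0.16 (standard error). In SMCs it measured 3.62, 2.90 and 2.09 TPM under Scr and 2.16, 1.47 and 1.84 TPM under siKlf4, which overlap, with a log2 difference of -0.44 ± 0.19, and -0.39 ± 0.20 for the numbered ones. Ptger4 was thus higher in every siKlf4 library of PDGFR-β+ cells and not of SMCs. It overlaps Ttc33, a gene of the opposite strand at 16.7 to 43.7 TPM, over 11676 bp. Whether the counting used strand is not given in the sources used here, so Ptger4 values are uncertain. The window before its start is shown because Ptger4 differed in PDGFR-β+ cells.
Ptger4, chr15:5244188-5244437, reverse strand: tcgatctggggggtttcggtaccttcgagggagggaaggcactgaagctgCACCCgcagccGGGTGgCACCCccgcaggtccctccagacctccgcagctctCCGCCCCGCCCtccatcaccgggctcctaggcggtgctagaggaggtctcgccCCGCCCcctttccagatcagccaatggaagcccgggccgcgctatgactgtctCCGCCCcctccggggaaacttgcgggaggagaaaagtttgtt
It held 3 CACCC words, between -200 and -179, and 4 GC boxes, of which 1 pair shares a base. The window of Ptges held 5 CACCC words and 2 GC boxes. Of the 10 genes, 8 have a RefSeq window.

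Ptger2 measured 2.16, 1.59 and 1.64 TPM in Scr and 1.65, 1.04 and 1.55 TPM in siKlf4 SMCs, which overlap, with a log2 difference of -0.22 ± 0.17 (standard error), and -0.20 ± 0.20 for the numbered ones. It was -0.10 without siKlf4 replicate 2 and -0.13 without the unnumbered Scr library. In PDGFR-β+ cells it was near the floor, at 0.0751 TPM in Scr replicate 1, listed at 0 in Scr replicates 2 and 3, and at 0.167, 0.297 and 0.277 TPM with siKlf4, so no fold is given. The 4 EP receptors together, Ptger3 included, summed to 9.01 to 18.7 TPM in Scr and 4.73 to 7.78 TPM in siKlf4 SMCs. In PDGFR-β+ cells they summed to 4.01 to 5.33 TPM with Scr and 6.05 to 7.23 TPM with siKlf4, most of it Ptger4 after knockdown.

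**Figure D3:**
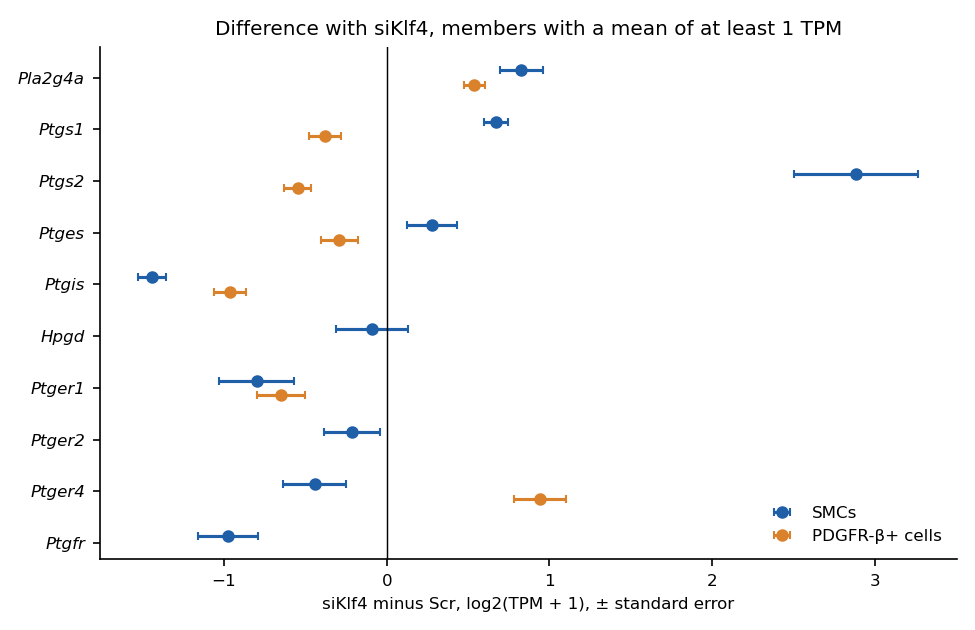
Points give the difference between siKlf4 and Scr on the log2(TPM + 1) scale with its standard error, for the genes that averaged 1 TPM or more across a cell type's 6 libraries. Ptgs2 stands at 2.88 in SMCs and -0.55 in PDGFR-β+ cells, and Ptger4 at -0.44 and 0.94.

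All 10 genes reached a mean of 1 TPM in SMCs and 7 did in PDGFR-β+ cells, where Hpgd, Ptger2 and Ptgfr were below it. In SMCs the groups did not overlap for 6 of the 10, with 3 above and 3 below, where 47.1% of the 13709 genes tested were without overlap, 15.6% passed the test upward and 12.9% downward. In the numbered SMC libraries alone, where groups of 2 separate more easily, it was 8 of 10 against 70.3% of genes. In PDGFR-β+ cells the groups of all 7 did not overlap, with 2 above and 5 below, where 53.8% of 13694 genes were without overlap, 25.3% passed the test upward and 15.3% downward. Since the set was chosen on these differences, nothing is read from the counts. The median log2 difference was -0.15 over the 10 genes in SMCs and -0.38 over the 7 in PDGFR-β+ cells, beside 0.02 and 0.10 over all genes tested. Just inside and outside the minimum of 1 TPM, Hpgd averaged 1.08 TPM in Scr SMCs, and Ptgfr 0.628 TPM in Scr PDGFR-β+ cells.

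The difference of the siKlf4 effect between the cell types, SMCs minus PDGFR-β+ cells on the log2 scale, was 3.43 ± 0.43 for Ptgs2, 1.05 ± 0.13 for Ptgs1 and 0.57 ± 0.20 for Ptges (standard error). For Pla2g4a it was 0.29 ± 0.15. It was -1.39 ± 0.25 for Ptger4, -0.48 ± 0.13 for Ptgis and -0.15 ± 0.28 for Ptger1. The cyclooxygenases and Ptger4 therefore differed most between the cell types, in opposite senses.

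At baseline the 10 genes spanned a wide range in each cell type. In Scr SMCs the order was Ptgis (262 ± 20.6 TPM, SD, n = 3), Ptgs1 (113 ± 6.77), Pla2g4a (69.3 ± 7.80), Ptges (40.5 ± 5.81), Ptgs2 (32.4 ± 12.3), Ptgfr, Ptger1, Ptger4, Ptger2 and Hpgd. Neighbours whose libraries overlapped were Ptges and Ptgs2, Ptgfr and Ptger1, and Ptger4 and Ptger2. In Scr PDGFR-β+ cells the order was Pla2g4a (215 ± 5.83 TPM, SD, n = 3), Ptgs2 (205 ± 12.6), Ptgs1 (193 ± 25.6), Ptgis (153 ± 9.90), Ptges (31.4 ± 4.73), Ptger4, Ptger1, Ptgfr, Hpgd and Ptger2. There Pla2g4a, Ptgs2 and Ptgs1 could not be ordered, nor Ptger4 and Ptger1, nor Ptgfr and Hpgd. Ptgs2 thus ranked 5 of 10 in SMCs and 2 of 10 in PDGFR-β+ cells.

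Genes whose pattern was nearest to that of Ptgs2 were sought by the root mean square difference over the 12 libraries of log2(TPM + 1), centred within each cell type, among 13032 genes that passed the minimum in both cell types. They were Mmp10 (0.194), Prl3a1 (0.212), Ccl2 (0.327), Nrep (0.348) and Ptgs2os2 (0.415), beside a median of 1.12 over all genes. Their log2 differences lay between 1.84 and 3.01 in SMCs and between -0.48 and 0.08 in PDGFR-β+ cells. Ptgs2os2, on the reverse strand from 150159043 to 150164948, lies past the end of Ptgs2, with its nearer end 50816 bp away. It had means of 3.38 and 14.8 TPM in Scr and siKlf4 SMCs and 20.2 and 19.0 TPM in PDGFR-β+ cells. For Ptgis the nearest were Sorcs2 (0.116), Rtn2 (0.142), Fam20a (0.156), Pold4 (0.168) and Chrd (0.172), beside a median of 0.677. These 5 were lower with siKlf4 in both cell types, with log2 differences of -1.52 to -1.13 in SMCs and -0.96 to -0.65 in PDGFR-β+ cells.

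The other genes of the pathway were taken from lists of 83 genes and tested with limma, with p adjusted over all genes. In SMCs 53 were tested, 5 rose and 11 fell, so that 16 of 53 passed beside 28.5% of all genes. In PDGFR-β+ cells 52 were tested, 17 rose and 14 fell, so that 31 of 52 passed beside 40.6% of all genes. The difference between the cell types passed the threshold for 21 of 50, beside 33.0% of all genes. These lists were chosen with earlier results of these data known, so nothing is read from the shares.

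The list of other prostanoid receptors also holds Ptgfrn, an inhibitor that binds the FP receptor. Of 4 tested in SMCs, 3 receptors fell and Ptgfrn rose, with a median log2 difference of -0.88. Over all genes tested in SMCs, 12.9% fell and 15.6% rose. Tbxa2r, the receptor of thromboxane, measured 13.6, 18.7 and 20.8 TPM in Scr and 5.18, 5.58 and 8.66 TPM in siKlf4 SMCs (-1.33 ± 0.21, adjusted p = 0.00571, and 0.0138 without the unnumbered libraries). Ptger3, the EP3 receptor, which lowers cAMP, measured 5.71, 2.26 and 1.63 TPM in Scr and 0.804, 0.194 and 0.261 TPM in siKlf4 SMCs (-1.47 ± 0.36, adjusted p = 0.0237). It met the minimum of 1 TPM only through the Scr libraries, with means of 3.20 TPM in Scr and 0.420 TPM in siKlf4 SMCs. Ptgir, the prostacyclin receptor, measured 4.81, 5.68 and 5.10 TPM in Scr and 3.80, 3.07 and 3.96 TPM in siKlf4 SMCs (-0.43 ± 0.13, adjusted p = 0.0470). Ptger3 lost its call without Scr replicate 2, siKlf4 replicate 2 or siKlf4 replicate 3 (adjusted p between 0.0501 and 0.0750), and Ptgir lost it on leaving out any single SMC library (0.0594 to 0.143) among numbered libraries only (0.0758) and under quantile normalization (0.108).

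In PDGFR-β+ cells Ptger3 and Ptgir were under the minimum, and neither Tbxa2r (-0.34 ± 0.25, adjusted p = 0.302) nor Ptgfrn (-0.21 ± 0.08, adjusted p = 0.0736) passed, though without siKlf4 replicate 1 both did (0.0156 and 0.0445), and Ptgfrn also did under median-ratio scaling (0.00779), quantile normalization (0.0180) and with both cell types in 1 fit (0.0479). Ptgfrn, an inhibitor that binds the FP receptor, rose in SMCs, from 41.7, 47.1 and 47.3 TPM to 57.8, 63.2 and 60.2 TPM (0.41 ± 0.08, adjusted p = 0.0104). The prostaglandin D2 receptors Ptgdr and Ptgdr2 stayed below 0.300 TPM in all 12 libraries.

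Slco2a1, the transporter that takes prostaglandins up into cells, fell in both cell types. It measured 64.7, 53.2 and 49.1 TPM in Scr and 25.2, 20.3 and 20.0 TPM in siKlf4 SMCs (-1.31 ± 0.13, adjusted p = 0.00143, and 0.00286 in numbered libraries alone). PDGFR-β+ cells held 27.0, 30.8 and 24.0 TPM under Scr and 5.10, 4.67 and 4.41 TPM under siKlf4 (-2.30 ± 0.11, adjusted p = 1.5e-05). The treatments did not overlap in either cell type, and the fall was larger in PDGFR-β+ cells (difference 0.99 ± 0.18, adjusted p = 0.00168). Klf4 itself also fell more in PDGFR-β+ cells (difference 1.19, limma adjusted p = 6.9e-04). The part of this unequal knockdown in the differences between the cell types was not tested. Abcc4, a transporter that carries prostaglandins out of cells, rose in PDGFR-β+ cells (0.66 ± 0.13, adjusted p = 0.00600) and had 0.27 ± 0.12 in SMCs (adjusted p = 0.126).

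Of the reductases that inactivate prostaglandins after Hpgd, Zadh2 fell in SMCs (-0.42 ± 0.08, adjusted p = 0.0102), and Ptgr2 fell in PDGFR-β+ cells (-0.31 ± 0.08, adjusted p = 0.0195). The call of Ptgr2 was lost without Scr replicate 1, siKlf4 replicate 1 or siKlf4 replicate 2 (adjusted p between 0.0543 and 0.0667). Ptgr1 fell in SMCs (-0.27 ± 0.08, adjusted p = 0.0356) and rose in PDGFR-β+ cells (0.29 ± 0.08, adjusted p = 0.0185), with a difference of -0.57 ± 0.10 (adjusted p = 0.00167). Each of its calls rests on single libraries: that in SMCs was lost without the unnumbered Scr library, either of the other Scr libraries or siKlf4 replicate 2 or 3 (0.0643 to 0.119), and that in PDGFR-β+ cells without Scr replicate 1 or any siKlf4 library (0.0508 to 0.0566) and under median-ratio scaling (0.19, adjusted p = 0.0673). Over the transport and breakdown list, none rose and 3 fell of 6 tested in SMCs, and 2 rose and 2 fell of 6 in PDGFR-β+ cells, with medians of -0.25 and -0.04.

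Of 7 other phospholipases A2 tested in both cell types, 1 passed the test of a difference between them, Pla2g4c. Pla2g4c, a cytosolic phospholipase of the same family as Pla2g4a, measured 0.742, 0.215 and 0.496 TPM in Scr and 5.25, 6.63 and 5.05 TPM in siKlf4 PDGFR-β+ cells (2.17 ± 0.18, adjusted p = 1.3e-04). In SMCs it measured 1.72, 1.09 and 1.11 TPM under Scr and 0.984, 0.787 and 0.895 TPM under siKlf4 (-0.28 ± 0.17, adjusted p = 0.261), and the effects differed by -2.45 ± 0.24 (adjusted p = 3.3e-05). In PDGFR-β+ cells its Scr mean was 0.484 TPM, under the minimum of 1 TPM, and its siKlf4 mean was 5.64 TPM. Pla2g4c was thus tested there only because it was high with siKlf4, a limit on the p-values of its rise and of its difference between cell types. Pla2g4b, of the same family, had 0.30 ± 0.30 in PDGFR-β+ cells (adjusted p = 0.458) and -0.82 ± 0.38 in SMCs (0.147). Pla2g4b overlaps Gm28042, a gene of the same strand, over 9614 bp. In PDGFR-β+ cells Pla2g2e (-0.76 ± 0.16, adjusted p = 0.00858) and Pla2g12a (-0.66 ± 0.14, adjusted p = 0.00761), which are secreted enzymes, fell.

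Pla2g16 fell in both, with -0.67 ± 0.11 in SMCs (adjusted p = 0.00554) and -0.56 ± 0.12 in PDGFR-β+ cells (adjusted p = 0.00713). Pla2g6 rose in PDGFR-β+ cells (0.30 ± 0.08, adjusted p = 0.0247), a call lost without any 1 of Scr replicates 1 and 3 and siKlf4 replicates 1, 2 and 3 (0.0561 to 0.0846). It was also lost under median-ratio scaling (0.105) and quantile normalization (0.0980). Pla2g7, which breaks down platelet activating factor, rose in SMCs (1.00 ± 0.27, adjusted p = 0.0344). Its call was lost without Scr replicate 3 or any siKlf4 library (0.0510 to 0.105). In all, 1 rose and 1 fell of 7 tested in SMCs, and 2 rose and 3 fell of 8 in PDGFR-β+ cells, with medians of -0.24 and 0.02.

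Of the genes that load arachidonic acid onto lipids or free it by other routes, Mgll, the monoacylglycerol lipase, fell in PDGFR-β+ cells, from 11.7, 12.0 and 17.9 TPM to 1.87, 3.28 and 2.89 TPM (-2.01 ± 0.21, adjusted p = 3.5e-04). In SMCs Mgll measured 2.31, 2.85 and 1.68 TPM under Scr and 2.46, 1.68 and 1.01 TPM under siKlf4 (-0.29 ± 0.24, adjusted p = 0.393), and the effects differed by 1.72 ± 0.34 (adjusted p = 0.00253). Acsl4, which activates arachidonic acid, rose in both (0.35 ± 0.07, adjusted p = 0.0105, and 0.32 ± 0.07, adjusted p = 0.0126). Lpcat3, which places it in phospholipids, fell in SMCs (-0.52 ± 0.09, adjusted p = 0.00588). Abhd12 (-0.47 ± 0.09, adjusted p = 0.00534) and Daglb (-0.34 ± 0.09, adjusted p = 0.0220) fell in PDGFR-β+ cells.

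The call of Daglb was lost without Scr replicate 1 or 3 or siKlf4 replicate 2 or 3 (adjusted p between 0.0592 and 0.0760), and Daglb overlaps Rac1 of the opposite strand over 2309 bp. Of 8 tested, 1 rose and 1 fell in SMCs and 1 rose and 3 fell in PDGFR-β+ cells, with medians of -0.12 and -0.09.

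Among the other synthases, Ptges3, a cochaperone that also has prostaglandin E synthase activity, rose in both cell types (0.43 ± 0.06, adjusted p = 0.00349, and 0.52 ± 0.08, adjusted p = 0.00215). In PDGFR-β+ cells Akr1b3, an aldo-keto reductase that can make prostaglandin F2α, rose (0.52 ± 0.09, adjusted p = 0.00286) and Fam213b, a prostaglandin F synthase, fell (-0.63 ± 0.13, adjusted p = 0.00680). Hpgds and Tbxas1, the hematopoietic prostaglandin D synthase and the thromboxane synthase, stayed below 1 TPM in every library. Of 5 tested, 1 rose in SMCs and 2 rose and 1 fell in PDGFR-β+ cells, with medians of -0.11 and 0.05. The leukotriene branch was little expressed: 10 of its 13 genes were under the minimum in SMCs and 11 in PDGFR-β+ cells. Alox15 was listed at 0 in all 12 libraries, and Ephx2, an epoxide hydrolase that acts on epoxides of arachidonic acid, fell in PDGFR-β+ cells (-0.79 ± 0.09, adjusted p = 6.7e-04). The median of the branch was -0.11 over 3 genes in SMCs and -0.45 over 2 in PDGFR-β+ cells.

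**Figure D4:**
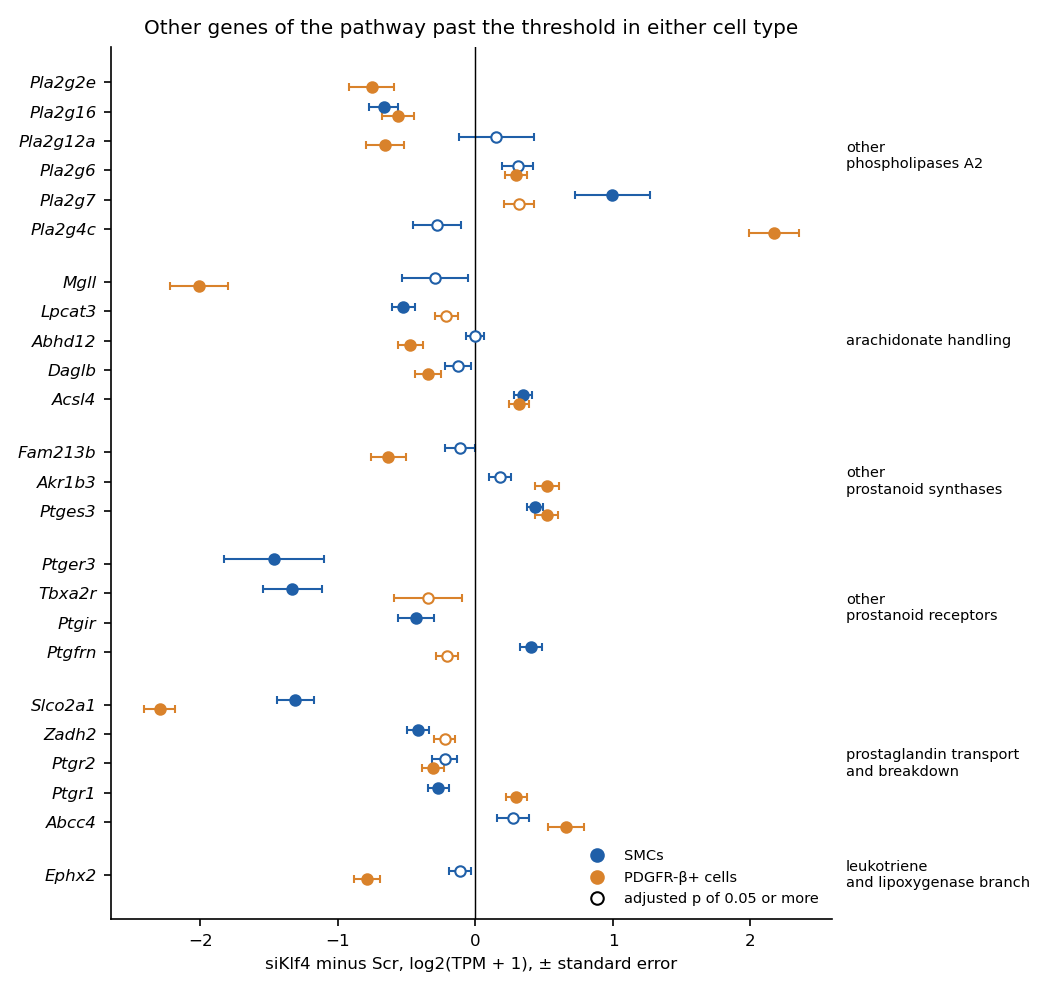
Points give the difference between siKlf4 and Scr on the log2(TPM + 1) scale with its standard error for the other genes of the pathway that passed an adjusted p of 0.05 in either cell type, grouped by list. Open points did not pass. Slco2a1 lies left of 0 in both cell types, Pla2g4c at 2.17 and Mgll at -2.01 in PDGFR-β+ cells, and Tbxa2r at -1.33 in SMCs.

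Because the receptors EP2 and EP4 raise cAMP, genes that answer to cAMP or make and degrade it were also examined. Of 20 tested in SMCs 1 rose and 3 fell, and of 21 in PDGFR-β+ cells 10 rose and 4 fell, with median log2 differences of -0.11 and 0.46. Over all genes tested, 15.6% rose and 12.9% fell in SMCs, and 25.3% rose and 15.3% fell in PDGFR-β+ cells. The list was chosen with earlier results of these data known, so nothing is read from the counts. In PDGFR-β+ cells the rises included phosphodiesterases that degrade cyclic nucleotides. Pde4b measured 15.3, 15.5 and 21.7 TPM under Scr and 46.1, 63.6 and 64.1 TPM under siKlf4 (1.67 ± 0.17, adjusted p = 3.6e-04), Pde4d had a difference of 1.23 ± 0.08 (adjusted p = 3.8e-05) and Pde3b one of 1.06 ± 0.14 (adjusted p = 9.1e-04).

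Rgs2, a regulator of G protein signalling, rose from 1.88, 2.20 and 1.08 TPM to 6.44, 5.54 and 5.18 TPM in PDGFR-β+ cells (1.32 ± 0.18, adjusted p = 0.00133). Nr4a2, an early response nuclear receptor, rose there as well (1.12 ± 0.16, adjusted p = 0.00147). Crem, Pde7b and Per1 rose by 0.65, 0.53 and 0.49 (adjusted p = 0.00803, 0.00468 and 0.0126). In SMCs Pde4b (-0.15 ± 0.18), Rgs2 (-0.02 ± 0.11), Nr4a2 (0.01 ± 0.17) and Pde3b (-0.26 ± 0.15) did not pass, and the difference between the cell types passed for each of these 4.

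Nr4a1 rose in both cell types, with 1.15 ± 0.17 in SMCs (adjusted p = 0.00385) and 0.88 ± 0.13 in PDGFR-β+ cells (adjusted p = 0.00152). Adcy3, an adenylyl cyclase, fell in both (-0.52 ± 0.08, adjusted p = 0.00474, and -0.89 ± 0.13, adjusted p = 0.00144), and it overlaps Cenpo of the opposite strand. In PDGFR-β+ cells Adcy7 (-0.92 ± 0.19, adjusted p = 0.00726), the protein kinase A subunit Prkar1b (-0.98 ± 0.10, adjusted p = 2.7e-04) and Dusp1 (-0.42 ± 0.10, adjusted p = 0.0115) fell too.

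Pde3a fell in SMCs (-0.56 ± 0.16, adjusted p = 0.0407) and rose in PDGFR-β+ cells (0.39 ± 0.11, adjusted p = 0.0301), with a difference of -0.94 ± 0.20 (adjusted p = 0.00443). In SMCs its call was lost without the unnumbered Scr library, Scr replicate 2 or 3, or siKlf4 replicate 2 or 3 (adjusted p between 0.0505 and 0.124). In PDGFR-β+ cells it was lost without any 1 library but siKlf4 replicate 3 (0.0599 to 0.0797), under median-ratio scaling (0.0632), under quantile normalization (0.0820) and with no filter (0.0768). Adcy6 fell in SMCs (-0.22 ± 0.06, adjusted p = 0.0338), a call that was lost without any 1 library but the unnumbered Scr library (0.0689 to 0.117).

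**Figure D5:**
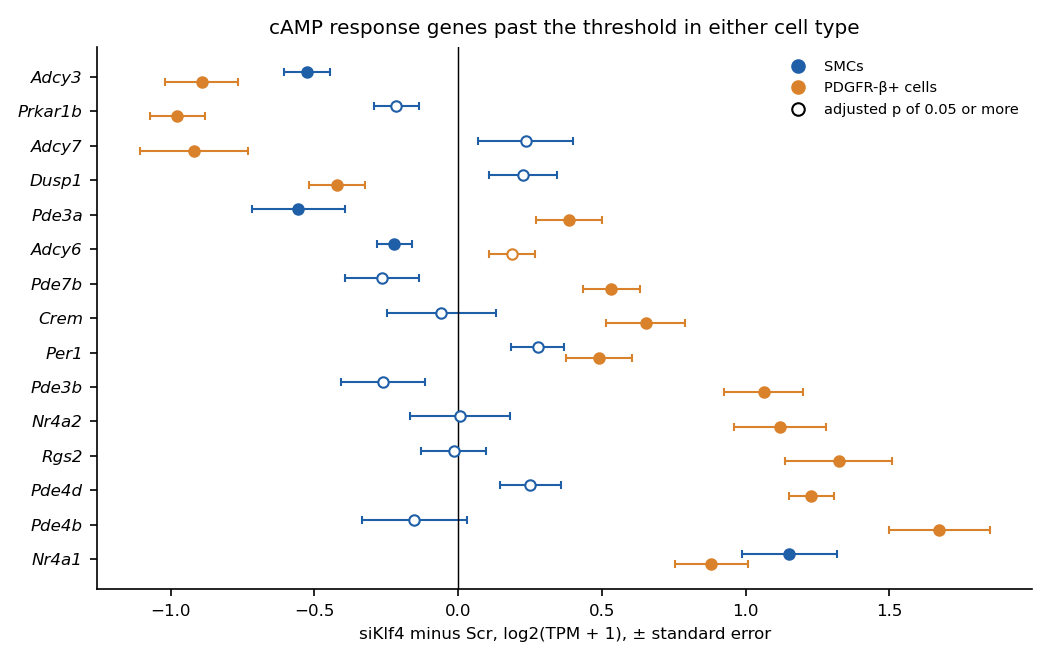
Points give the difference between siKlf4 and Scr on the log2(TPM + 1) scale with its standard error for cAMP response genes that passed an adjusted p of 0.05 in either cell type. Open points did not pass. Pde4b, Rgs2, Pde4d, Nr4a2 and Pde3b lie between 1.06 and 1.67 in PDGFR-β+ cells and between -0.26 and 0.25 in SMCs.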

How the data were processed

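Reads of stranded polyA libraries were trimmed by the authors, mapped to mm10 by HISAT2 with GENCODE genes, and quantified by StringTie and ballgown. The deposited values are TPM, 1 table for SMCs and 1 for PDGFR-β+ cells, each with its 6 libraries apart. The strand setting of the counting is not given in the sources used here. On the log2(TPM + 1) scale, genes that averaged 1 TPM or more over a cell type's libraries were fitted with limma 3.58.1 (R 4.3.3), using a trended eBayes step. Two-sided p-values were adjusted over all genes tested by the Benjamini-Hochberg method, with a threshold of 0.05. The difference between cell types was the interaction term over 12 libraries. All per-sample columns were used. The study's DESeq2 tests on counts were not repeated. The 10 genes and the pathway and marker lists were chosen with earlier results of these data known. Genes named were the 10, Klf4, cell type markers, list genes past the threshold, the 5 genes nearest to Ptgs2 and to Ptgis, and overlapping genes. Ptgs2os was added for its position. Pla2g4b was named beside Pla2g4c though it did not pass, and Ptgdr, Ptgdr2, Hpgds, Tbxas1 and Alox15 were named as genes under the minimum. Positions come from GENCODE M21, and sequences from RefSeq (GRCm38.p6). The procedure was tested on simulated data. Alternatives were other pseudocounts, filters, scalings and designs, a replicate block and leaving out each library. 1 annotated item is not reported here.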

Additional observations from a re-analysis of the deposited data

Results flagged for a closer look

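Ptgs2 and Ptgs1 were flagged because every siKlf4 library moved one way in SMCs and every siKlf4 library the other way in PDGFR-β+ cells. The effect in SMCs minus that in PDGFR-β+ cells was 3.43 for Ptgs2 and 1.05 for Ptgs1 on the log2 scale, and these differences were not tested, since both genes were chosen on them.

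For 21 other genes of the pathway the interaction term of limma passed the threshold, and the values here are the log2 effect in SMCs minus that in PDGFR-β+ cells. Among phospholipases and lipases it was -2.45 for Pla2g4c (adjusted p = 3.3e-05), 1.72 for Mgll (0.00253) and 0.47 for Abhd12 (0.00684). Pla2g4c met the minimum in PDGFR-β+ cells only through its siKlf4 libraries. Among synthases it was -0.34 for Akr1b3 (0.0465) and 0.52 for Fam213b (0.0386). It was 0.61 for Ptgfrn (0.00144), 0.99 for Slco2a1 (0.00168), -0.57 for Ptgr1 (0.00167) and 0.68 for Ephx2 (0.00145).

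Among the cAMP response genes it was -1.11 for Nr4a2 (0.00490), -0.71 for Crem (0.0480) and -1.34 for Rgs2 (8.5e-04). For phosphodiesterases it was -1.83 for Pde4b (5.0e-04), -0.98 for Pde4d (1.2e-04), -0.94 for Pde3a (0.00443), -1.32 for Pde3b (5.0e-04) and -0.80 for Pde7b (0.00243). It was 0.65 for Dusp1 (0.00952), -0.41 for Adcy6 (0.00583), 1.15 for Adcy7 (0.00562) and 0.76 for Prkar1b (6.6e-04). The call of Adcy7 was lost under the replicate block (1.09, adjusted p = 0.0536). The calls of Akr1b3, Fam213b and Crem were the least stable: each passed in 7 or 8 of 20 alternatives, and their highest adjusted p was 0.149, 0.105 and 0.106.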

How the results depend on the processing

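The count of genes past the threshold in SMCs, 3910, lay between 2216 and 3563 with 1 library left out, and it was 2539 without Scr replicate 2, 2216 without siKlf4 replicate 2 and 2342 without siKlf4 replicate 3. The paired fit with a replicate block gave 2853 genes in SMCs (numbered libraries), 5641 in PDGFR-β+ cells beside 5559, and 3882 for the difference beside 4297. Same-numbered PDGFR-β+ libraries correlated at 0.0732, -0.0158 and 0.00430, so the numbers were not taken to pair the samples. With the replicate block the SMC calls of Pla2g7 (0.0604), Ptgs2os (0.0930), Ptgir (0.123) and Adcy6 (0.0833) were lost, as were the calls of a difference between cell types for Adcy7 (0.0536) and Fam213b (0.0904), and Zadh2 passed in PDGFR-β+ cells (0.0406). In PDGFR-β+ cells the split of 3461 higher and 2098 lower became 2639 and 2977 under median-ratio scaling, which moved the median of all genes from 0.10 to 0.00, and for the difference 1886 and 2411 became 2510 and 1913. Each of the 10 genes in SMCs and of the 7 tested in PDGFR-β+ cells kept the direction of its difference under every alternative run. The exception was Hpgd in SMCs, which ranged from -0.21 to 0.10. Hpgd, Ptger2 and Ptgfr were not compared in PDGFR-β+ cells, where they were under the minimum. The difference between cell types changed sign for Ptger1. Of the alternative values of the 10 genes, 385 moved by less than the spread between libraries and 8 by more. Values near 0 changed sign in SMCs for Nr4a2 under median-ratio scaling (-0.00468) and Rgs2 under quantile normalization (0.00181), and with 1 library left out for Abhd12 (-0.0248 to 0.0277), Nr4a2 (-0.115 to 0.166), Crem (-0.229 to 0.0655), Rgs2 (-0.0989 to 0.0453) and, in PDGFR-β+ cells, Ptgs2os2 (-0.183 to 0.0371); the cause was not tested. With no filter on low values, the SMC calls of Ptger3, Ptgir, Pla2g7, Ptgr1, Pde3a and Ptgs2os were lost (0.0537 to 0.132). TPM keeps no depth, so counting error for low genes such as Hpgd and Ptger2 cannot be given.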
